A study of Mus musculus with 4 samples.

Results

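A set of 10 genes of the p53 pathway was followed in late two-cell mouse embryos cultured with a MYC inhibitor. They are Trp53, the gene of p53 itself, its inhibitors Mdm2 and Mdm4, and 7 genes known as direct p53 targets, Cdkn1a, Ccng1, Gadd45a, Ei24, Trp53inp1, Sesn1 and Sesn2. They were chosen by symbol for what is known of the pathway, with earlier results of these data known. All 10 members were listed among the 24411 genes of every library. Polyadenylated RNA was sequenced from 4 libraries, each a pool of 10 whole embryos of the ICR strain made by in vitro fertilization, grown in KSOM medium and collected at 36 h post-insemination (hpi). The embryos of 2 libraries were cultured with 6 µM 10074-G5, a compound that blocks the dimer of MYC and MAX, while the 2 control libraries came from embryos in DMSO, its solvent. The treatment began at the one-cell stage, given as 3 hpi with the samples and as 6 hpi in the design of the series. Neither source says whether the 2 libraries of a group came from separate fertilizations, so p-values measure the spread between these libraries only.

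p53 is a transcription factor that halts the cell cycle or starts cell death after DNA damage and other stress. Mdm2 attaches ubiquitin to p53 and sends it for degradation, Mdm4 binds p53 and blocks its activity, and p53 in turn switches on Mdm2, so that its own level is held down mainly at the level of protein. When ribosome assembly fails, a particle of the ribosomal proteins Rpl5 and Rpl11 with 5S rRNA binds Mdm2 and frees p53. The question here was whether p53 and its targets differ between the groups alongside the genes of ribosome assembly.

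Depth was alike in the 4 libraries, with totals between 18206600 and 20718700 counts, and no member had fewer than 132 counts in any library. DMSO replicate 1 stood apart from the rest. Across the 13549 genes that passed the filter on low counts (genes are not independent replicates), Pearson's r of log2 CPM was 0.825 to 0.887 between DMSO replicate 1 and the other libraries and 0.912 to 0.931 among those. The CPM (share of a library's counts on a fixed scale, corrected with TMM factors) of the 2 DMSO replicates lay over 2-fold apart for 37.3% of genes. Here and below, fold differences in CPM between libraries were taken after a small constant was added to each CPM. For the members, and for most of the other genes named, the log2FC is therefore also given without DMSO replicate 1. The summed FPKM (fragments scaled to transcript length and library size) of 12 markers of the two-cell embryo, such as Zscan4d and Zfp352, was 1182 in DMSO replicate 1 and 3617, 4119 and 4793 in the others, and 1 of the 12 was at 0 in 1 library. The sum of 10 transcripts stored in the oocyte was 1192 in DMSO replicate 1, 2770 in DMSO replicate 2, and 6108 and 4929 in the inhibitor-treated replicates, with none of them at 0. The part of these differences in the results on p53 genes was not tested. The 12 cumulus cell markers summed to 6.94 to 22.7 FPKM, with Ptx3, Foxl2, Inhba and Inha at 0 in every library, and the 7 sperm markers to 2.7 to 16.1 FPKM, with Prm1, Tnp2 and Smcp at 0 in every library.

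Many of the members are known as p53 targets through sites in their promoters or introns. A share of matches among genes chosen in this way is no result of these libraries. Whether the matches below are those known sites was not checked. Promoter windows of 300 bases, from 250 bases before to 50 bases after each RefSeq start on GRCm38.p6, were held for 9 of the 10 members, in 12 windows. The p53 half-site consensus, which reads the same on both strands, was found in a window of 7 of these 9 members, against 8.36% of all 32851 windows and 9.55% of the 27025 genes. Cdkn1a was the only member with a full p53 element, here 2 half-sites with at most 13 bases between them, which 0.0731% of all windows hold. The stretches upstream of the start that hold these matches are shown for 6 members, with each half-site in capitals. That of Sesn1, before the downstream one of its 2 starts, is not shown. Only exact matches to the consensus were counted, so a near match directly after the downstream half-site of Cdkn1a is in lower case.
Cdkn1a, chr17:29090859-29090978, plus strand: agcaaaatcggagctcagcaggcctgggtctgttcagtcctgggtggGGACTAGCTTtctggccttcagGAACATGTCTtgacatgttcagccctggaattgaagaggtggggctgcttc
Ei24, chr9:36797335-36797394, minus strand: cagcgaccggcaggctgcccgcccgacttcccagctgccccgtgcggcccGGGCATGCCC
Gadd45a, chr6:67037408-67037467, minus strand: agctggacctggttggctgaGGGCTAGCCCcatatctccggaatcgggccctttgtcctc
Trp53, chr11:69580259-69580318, plus strand: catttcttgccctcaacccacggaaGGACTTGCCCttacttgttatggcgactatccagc
Ccng1, chr11:40755432-40755491, minus strand: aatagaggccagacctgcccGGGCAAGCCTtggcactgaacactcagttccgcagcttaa
Mdm2, chr10:117710904-117710963, minus strand: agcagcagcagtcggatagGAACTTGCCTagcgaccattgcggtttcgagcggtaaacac

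The half-site of Ei24 lay directly before its start, from base -10 to base -1. The 2 matched half-sites of Cdkn1a lay between base -73 and base -42 of the upstream one of its 2 starts. Whether this pair is the element that p53 binds was not checked. The other members with a half-site had it between 31 and 186 bases before a start. The canonical E-box CACGTG, which MYC binds with MAX, was searched in the same windows and reads the same on both strands. It was found in 7.15% of all windows and in 1 member, Trp53, from base 11 to base 16 after the start, and it overlapped no p53 half-site. The stretch around it is shown with the E-box in capitals.
Trp53, chr11:69580359-69580384, plus strand: tttcccctccCACGTGctcaccctgg
A match is only a run of letters in the window, and the libraries hold no measure of binding.

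The members spanned a wide range of levels (FPKM, which is scaled to transcript length and so can be compared between genes). Mdm4 was the highest member in all 4 libraries and ranked between 138 and 168 among the 24411 genes in DMSO replicate 2 and both inhibitor-treated replicates, and 617 in DMSO replicate 1. Mdm2, Ei24, Trp53inp1, Gadd45a and Trp53 followed, all between 18.2 and 100 FPKM. Ccng1, Sesn1, Sesn2 and Cdkn1a stayed under 16 FPKM everywhere, and the best rank among them was 4154, that of Cdkn1a in inhibitor-treated replicate 1.

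**Figure D1:**
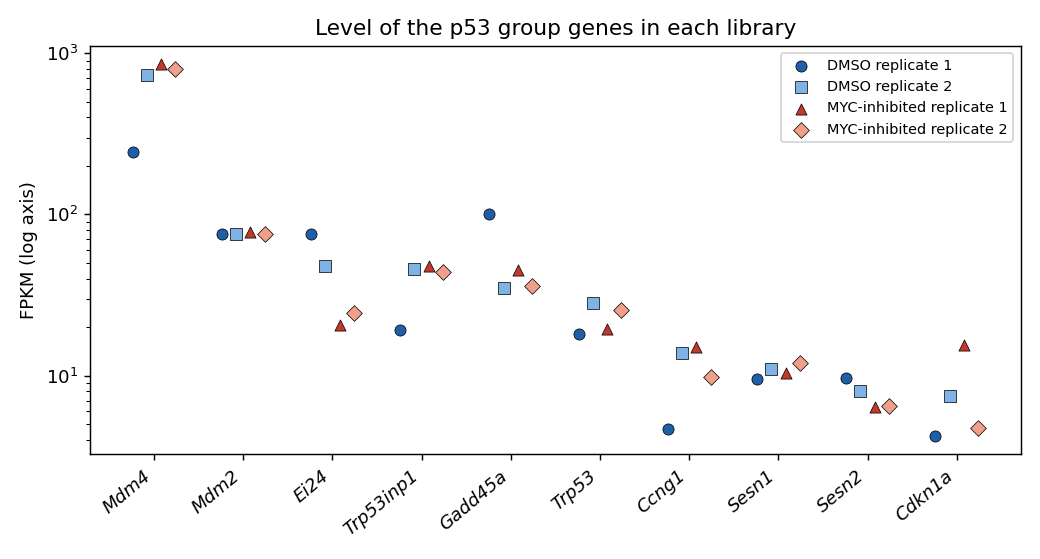
FPKM (log axis) of each of the 10 members in each library, ordered by the level in DMSO replicate 2; each point is 1 library, with circles and squares for DMSO and triangles and diamonds for 10074-G5. Mdm4 lies highest at 245 to 852, the 4 points of Mdm2 lie together near 75 to 78, and Ei24 is the member whose 2 treated points lie farthest below both control points.

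The level of Trp53 RNA (chromosome 11, 69580348 to 69591873 on GRCm38.p6) was 18.2 and 28.3 FPKM in the control libraries and 19.4 and 25.7 FPKM in the inhibitor-treated libraries. The groups overlapped, with the highest and the lowest FPKM both in control embryos. In CPM the lowest value was in inhibitor-treated replicate 1, at 28.3 against 31.5 and 41.6 in control embryos. The log2FC was -0.17 (standard error 0.41) with a 95% interval from -1.12 to 0.79, and the adjusted p was 0.861. Here and below, unless DESeq2 is named, an adjusted p comes from edgeR (quasi-likelihood test, Benjamini-Hochberg adjustment over all tested genes). Without DMSO replicate 1 the log2FC of Trp53 was -0.34. In whole embryos, fewer cells with a transcript and less transcript per cell cannot be told apart.

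Mdm2, the ubiquitin ligase (chromosome 10, 117688875 to 117710758), had 75.5 and 75.1 FPKM in control and 77.8 and 75.4 FPKM in treated embryos. Its CPM spanned only 1.21-fold over the 4 libraries, and only 1.99% of the tested genes spanned less, the median being 2.71-fold. The log2FC was -0.12 (standard error 0.35, 95% interval -0.92 to 0.68, adjusted p = 0.884 by edgeR), and it was 0.026 without DMSO replicate 1 and 0.028 where library totals replaced TMM factors. The 4 values were close together, but the interval of the fit was wide.

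Mdm4, the inhibitor that blocks p53 without degrading it (chromosome 1, 132986105 to 133030587), had 245 and 734 FPKM in control and 852 and 803 FPKM in treated embryos. Both treated values lay above both control values, but DMSO replicate 2 was far nearer to the treated libraries than to DMSO replicate 1. The log2FC was 0.67 (standard error 0.51, 95% interval -0.52 to 1.87, adjusted p = 0.524 by edgeR) and 0.17 without DMSO replicate 1. Per transcript length, Mdm4 RNA exceeded Mdm2 RNA 3.25-fold in DMSO replicate 1, 9.78-fold in DMSO replicate 2, and 10.9-fold and 10.7-fold in the inhibitor-treated replicates. The span of Mdm4 contains a pseudogene, Gm29257, and overlaps a noncoding RNA, Gm41953, which makes its counts uncertain.

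Cdkn1a encodes p21, the inhibitor of cyclin-dependent kinases by which p53 stops the cell cycle (chromosome 17, 29090979 to 29100722). Its level was 4.23 and 7.48 FPKM in control embryos and 15.5 and 4.74 FPKM in treated embryos, from counts of 132, 222, 524 and 153. In FPKM the highest value was in inhibitor-treated replicate 1 and the other treated library lay between the controls. In CPM that other treated library was the lowest, at 7.30 against 7.90 and 11.8 in control embryos. The treated libraries differed 3.18-fold from each other in CPM, and Cdkn1a was the only member for which they differed by more than 2-fold, as they did for 15.9% of all tested genes. The log2FC of 0.68 (standard error 0.66, 95% interval -0.86 to 2.23, adjusted p = 0.62 by edgeR) rested on inhibitor-treated replicate 1 and was -0.39 without it. Without DMSO replicate 1 it was 0.43.

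Ccng1, which encodes cyclin G1, a long-known product of p53 activity (chromosome 11, 40748552 to 40755309), had 4.64 and 13.7 FPKM in control and 14.9 and 9.74 FPKM in treated embryos. DMSO replicate 1 was the lowest, and the other control value lay between the treated ones. The log2FC was 0.35 (standard error 0.54, adjusted p = 0.772 by edgeR) and -0.15 without DMSO replicate 1.

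Gadd45a, a small protein that slows the cycle after DNA damage (chromosome 6, 67035096 to 67037407), had 100.4 and 34.9 FPKM in control and 45.1 and 35.9 FPKM in treated embryos. Its highest value was in DMSO replicate 1 and its lowest in DMSO replicate 2, so the groups overlapped. The log2FC of -0.94 (standard error 0.59, 95% interval -2.31 to 0.44, adjusted p = 0.447 by edgeR) was 0.22 without DMSO replicate 1. The antisense RNA E230016M11Rik overlaps Gadd45a and had 8 counts in DMSO replicate 1 and 0 in the other libraries. Counting by strand is not stated, so reads of a gene and its antisense partner cannot be told apart.

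Ei24, also named PIG8, encodes a membrane protein of the endoplasmic reticulum that was found as a p53-induced gene and takes part in autophagy (chromosome 9, 36779153 to 36797334). It had 75.2 and 47.8 FPKM in control embryos and 20.6 and 24.3 FPKM in treated embryos, from counts of 2638, 1594, 783 and 880. Both treated libraries lay below both control libraries, which themselves differed 1.87-fold in CPM. The log2FC was -1.63 (standard error 0.43, 95% interval -2.64 to -0.62), with an unadjusted p of 0.00617 and an adjusted p of 0.333 by edgeR. DESeq2 with the transcript lengths as offsets gave -1.64 (standard error 0.48, adjusted p = 0.0222). Without DMSO replicate 1 the log2FC was -1.09, and over all alternatives it lay between -2.02 and -1.09 with an adjusted p between 0.000629 and 0.992. Ei24 overlaps the antisense RNA Gm26787, which was not used here.

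Trp53inp1, a p53 cofactor that promotes cell death and autophagy (chromosome 4, 11156441 to 11174379), had 19.2 and 46.1 FPKM in control and 48.1 and 43.9 FPKM in treated embryos. DMSO replicate 1 alone was low, and the other 3 libraries lay within a narrow range. The log2FC was 0.40 (standard error 0.43, adjusted p = 0.653 by edgeR) and -0.0017 without DMSO replicate 1.

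The sestrins Sesn1 and Sesn2 restrain mTORC1, the kinase complex that drives growth and ribosome production. Sesn1 (chromosome 10, 41810574 to 41908436) had 9.54 and 10.96 FPKM in control and 10.3 and 12.0 FPKM in treated embryos, with a log2FC of -0.06 (standard error 0.41, 95% interval -1.02 to 0.89, adjusted p = 0.951 by edgeR) and of -0.0099 without DMSO replicate 1. Its CPM spanned 1.14-fold over the libraries, and 0.517% of tested genes spanned less. The mean transcript length estimated for Sesn1 was 2763 and 2721 bases in control and 2677 and 2636 bases in treated embryos, a measure that reflects which of its 2 transcripts the reads were assigned to. Sesn2 (chromosome 4, 132492804 to 132510456) had 9.65 and 8.07 FPKM in control and 6.34 and 6.48 FPKM in treated embryos. Both treated values of Sesn2 lay below both control values, with a log2FC of -0.62 (adjusted p = 0.504 by edgeR, standard error 0.45) that was -0.33 without DMSO replicate 1.

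Counted over the group, 0 of the 10 members passed |log2FC| > 1 with an adjusted p under 0.05 by edgeR, as 0% of the 13549 tested genes did in either direction, and the smallest adjusted p over all genes was 0.333. At an unadjusted p under 0.05 edgeR gave 1 member, Ei24, which was lower, against 10.1% of all tested genes lower and 4.72% higher. DESeq2 with transcript lengths called the same member, lower, against 2.41% of 18208 genes called lower and 0.478% called higher. Those 18208 include genes with low counts, and the 438 lower and 87 higher genes called were all among the 13549. The CPM of the groups did not overlap for 3 members, Mdm4 higher and Ei24 and Sesn2 lower, against 57.3% of all tested genes, of which 28.9% of the tested genes were higher and 28.3% lower. The median log2FC was -0.09 over the members and 0.04 over all tested genes. For any one gene, 0.333 is also the smallest two-sided p that exact permutation of 2 against 2 libraries allows.

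**Figure D2:**
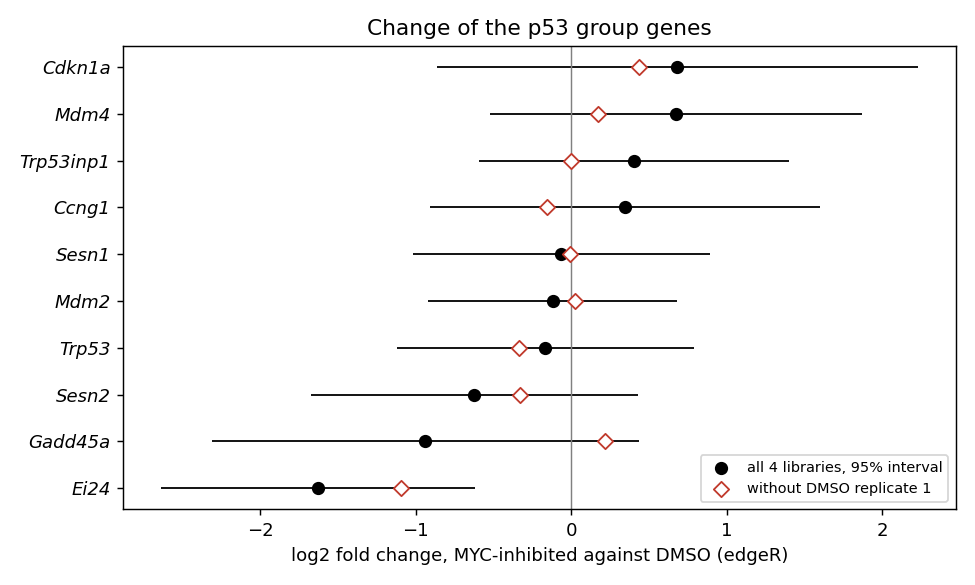
Log2 fold change of each member in inhibitor-treated against DMSO embryos by edgeR; filled circles use all 4 libraries with 95% intervals as lines, and open diamonds leave out DMSO replicate 1. The interval crosses 0 for every member but Ei24, which lies at -1.63 and at -1.09 without DMSO replicate 1, and the diamonds of the other members lie between -0.34 and 0.43.

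A wider list of other known p53 targets was read in the same fit. Of 50 symbols written down, 48 were listed and 39 tested, 20 of them higher and 19 lower in treated embryos, with a median log2FC of 0.03, or -0.048 without DMSO replicate 1. None passed the edgeR thresholds. At an unadjusted p under 0.05 there were 1 higher and 2 lower genes, and the groups did not overlap for 6 higher and 8 lower genes, or 14 of 39 where all tested genes gave 57.3%. DESeq2 with transcript lengths called 1 gene of the list in each direction.

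Among the death genes of this list, Bax, whose protein opens the mitochondrial outer membrane, had 62.3 and 15.02 FPKM in control and 8.35 and 9.75 FPKM in treated embryos. The difference was -2.31 on the log2 scale (adjusted p = 0.333 by edgeR and 0.0323 by DESeq2 with transcript lengths, standard error 0.77) and -0.72 without DMSO replicate 1, so most of the gap lay between that library and the other three. Pmaip1, which encodes the BH3-only protein Noxa, had 3.65 and 19.3 FPKM in control and 13.3 and 13.9 FPKM in treated embryos (log2FC 0.18, adjusted p = 0.908 by edgeR, and -0.51 without DMSO replicate 1). Bbc3, which encodes Puma, had 16 and 0 counts in control and 4 and 0 counts in treated embryos and did not pass the filter on low counts. Phlda3 was at 0 in all 4 libraries, where a count of 0 allows up to 3 counts. Perp had at most 0.47 FPKM and Zmat3 at most 0.41 FPKM. The standard errors of their log2FC were 2.27 and 1.19, so differences in them were not resolved by these libraries.

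The exonuclease gene Aen had 8.31 and 8.33 FPKM in control and 5.99 FPKM in both treated libraries, with a log2FC of -0.60 (adjusted p = 0.522 by edgeR) and of -0.48 without DMSO replicate 1. Plk2, a polo-like kinase, had 18.3 and 5.58 FPKM in control and 6.57 and 7.13 FPKM in treated embryos, and its log2FC of -1.01 was 0.30 without DMSO replicate 1. Btg2, an antiproliferative gene, had 0.80 and 2.74 FPKM in control and 2.23 and 4.0 FPKM in treated embryos, and Ddit4, an inhibitor of mTORC1, had 3.86 and 3.25 against 3.56 and 2.37 FPKM. Neither gene separated the groups. The remaining genes with an unadjusted p under 0.05, named here after their values were seen, were Abhd4, a lipase gene, at 2.87 and 22.5 FPKM in control and 51.0 and 55.4 FPKM in treated embryos (log2FC 2.02, adjusted p = 0.333 by edgeR, 0.038 by DESeq2 with transcript lengths), and Gtse1, a mitotic gene, with a log2FC of -1.504. Abhd4 was at 1.24 and Gtse1 at -1.78 without DMSO replicate 1.

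Genes that act on p53 were tested for 36 of 40 symbols, with 15 higher and 21 lower and a median log2FC of -0.23, or -0.14 without DMSO replicate 1. None passed the edgeR thresholds, and 5 had an unadjusted p under 0.05, all lower, against 10.1% of all tested genes. Of the checkpoint kinases, Chek1 had 55.9 and 116.9 FPKM in control and 136.5 and 122.5 FPKM in treated embryos, and Chek2 had 80.3 and 60.7 against 36.9 and 50.1 FPKM. Their log2FC was 0.48 (adjusted p = 0.562 by edgeR) for Chek1 and -0.86 (adjusted p = 0.35) for Chek2, and 0.15 and -0.48 without DMSO replicate 1. Atm, the kinase that responds to double-strand breaks, was at 11.5 and 10.8 against 7.77 and 10.5 FPKM, and Atr, its counterpart at stalled forks, at 1.19 and 1.44 against 2.04 and 2.56 FPKM. The log2FC was -0.44 for Atm and 0.67 for Atr, and -0.24 and 0.67 without DMSO replicate 1. The groups did not overlap in CPM for Chek1, Chek2, Atm and Atr. Over the 36 genes this held for 8 higher and 15 lower genes, where all tested genes gave 57.3%.

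Usp7, which removes ubiquitin from p53 and Mdm2, had a log2FC of -0.34 (adjusted p = 0.639 by edgeR), and Trp53bp1, a p53-binding repair protein, had -0.21 (adjusted p = 0.819), with -0.22 and -0.20 without DMSO replicate 1. The kinase gene Hipk2 had 2.46 and 3.01 FPKM in control and 4.14 and 6.70 FPKM in treated embryos, a log2FC of 0.87 (adjusted p = 0.404 by edgeR) that was 0.84 without DMSO replicate 1. Cdkn2a, the gene of the Mdm2 antagonist Arf, was at 0 counts in every library. The 5 genes with an unadjusted p under 0.05, named after their values were seen, were the mitotic kinase Aurka, the deacetylases Sirt1 and Hdac1, the corepressor Trim28 and the DNA repair kinase Prkdc, with log2FC between -1.20 and -0.96. Without DMSO replicate 1 they were at -0.67 for Aurka, -0.61 for Sirt1, -0.55 for Hdac1, -0.37 for Trim28 and -0.96 for Prkdc.

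Genes that link ribosome assembly to p53 were lower in treated embryos throughout. The 5S and ribosome biogenesis lists below were written with earlier results of these data known, so their shares are description only. All 20 tested genes of the 5S particle and nucleolar surveillance list had a negative log2FC, with a median of -1.37, and their groups did not overlap for any of the 20, against 28.3% of all tested genes lower without overlap. The median was -0.73 without DMSO replicate 1. By edgeR 0 of the 20 passed the adjusted threshold and 18 had an unadjusted p under 0.05, all lower, against 10.1% of all tested genes. DESeq2 with transcript lengths called 9, all lower, against 438 of the 13549 genes that passed the filter on low counts. Rpl5 had 288 and 103.6 FPKM in control and 51.1 and 76.0 FPKM in treated embryos, and Rpl11 had 978 and 434 against 199 and 308 FPKM. The log2FC was -1.83 (standard error 0.59, adjusted p = 0.333 by edgeR) for Rpl5 and -1.66 (standard error 0.53, adjusted p = 0.333) for Rpl11, and -0.71 and -0.77 without DMSO replicate 1.

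The loading factors of the 5S particle followed the same order of libraries. Rrs1 had 53.9 and 45.6 FPKM in control and 20.7 and 27.6 FPKM in treated embryos, and Rpf2 had 535 and 405 against 146 and 215 FPKM. In FPKM, DMSO replicate 2 lay nearer to DMSO replicate 1 than to the treated libraries for both genes, and the log2FC was -0.92 for Rrs1 and -1.16 for Rpf2 without DMSO replicate 1. The nucleolar proteins Npm1 and Ncl had a log2FC of -1.28 and -1.16 over all libraries and of -0.56 and -0.52 without DMSO replicate 1. Ribosomal protein genes and Npm1 have many processed copies in the genome, and their counts are uncertain.

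In the list of 119 tested ribosome biogenesis genes, 118 were lower and 1, Noc3l, was higher at a log2FC of 0.20 in treated embryos (named after its value was seen), with a median log2FC of -1.06. The median was -0.55 without DMSO replicate 1, and 109 of the genes were then lower. By edgeR 62 of them had an unadjusted p under 0.05, all lower, against 10.1% of all tested genes. DESeq2 with transcript lengths called 23, all lower, against 438 of the 13549 genes that passed the filter on low counts. Wdr12, a subunit of the PeBoW complex that matures the large ribosomal subunit, had a log2FC of -1.65, and its partners Bop1 and Pes1 had -1.45 and -0.74. The rRNA methyltransferase gene Fbl was at -0.63, its box C/D partner Nop56 at -0.94 and the RNA polymerase I subunit gene Polr1b at -0.82. Without DMSO replicate 1, Pes1 and Polr1b were at 0.25 and 0.05, and the others stayed between -0.90 and -0.37. DMSO replicate 1 held the highest CPM for 112 of the 119 genes and for all 20 genes of the 5S list. Among the 10 members it held the highest CPM for 5 and the lowest for 3. Over all 13549 tested genes it held the highest for 4987 and the lowest for 5590.

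**Figure D3:**
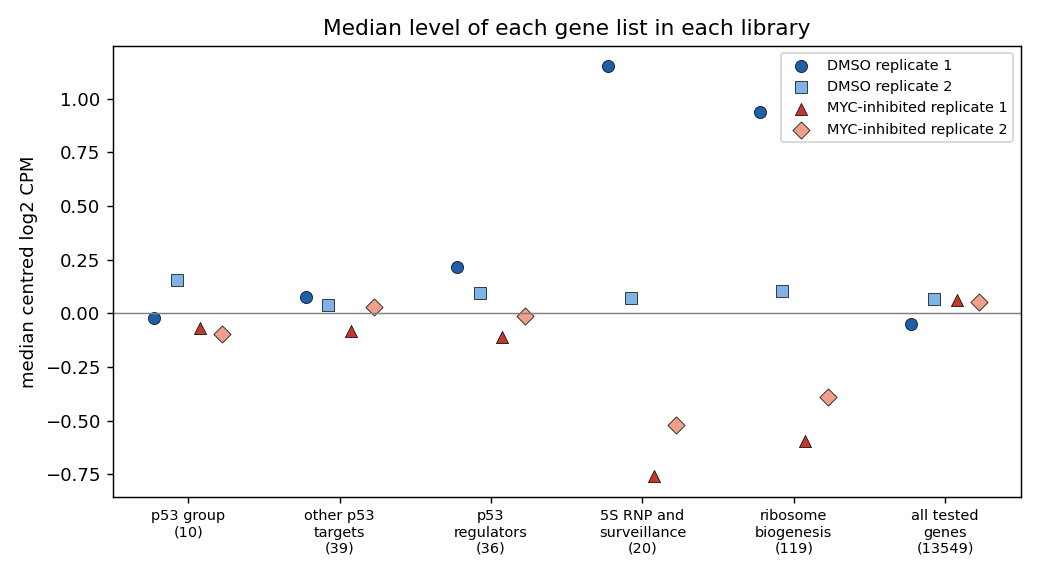
Median over each gene list of log2 CPM centred on each gene's mean, in each of the 4 libraries, with the number of tested genes under each list. The 5S and ribosome biogenesis lists run from about 1 in DMSO replicate 1 to -0.39 or lower in the treated libraries. The median of the p53 members lies between -0.10 and 0.15 in all 4 libraries, while single members differ more between libraries, in either direction.

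**Figure D4:**
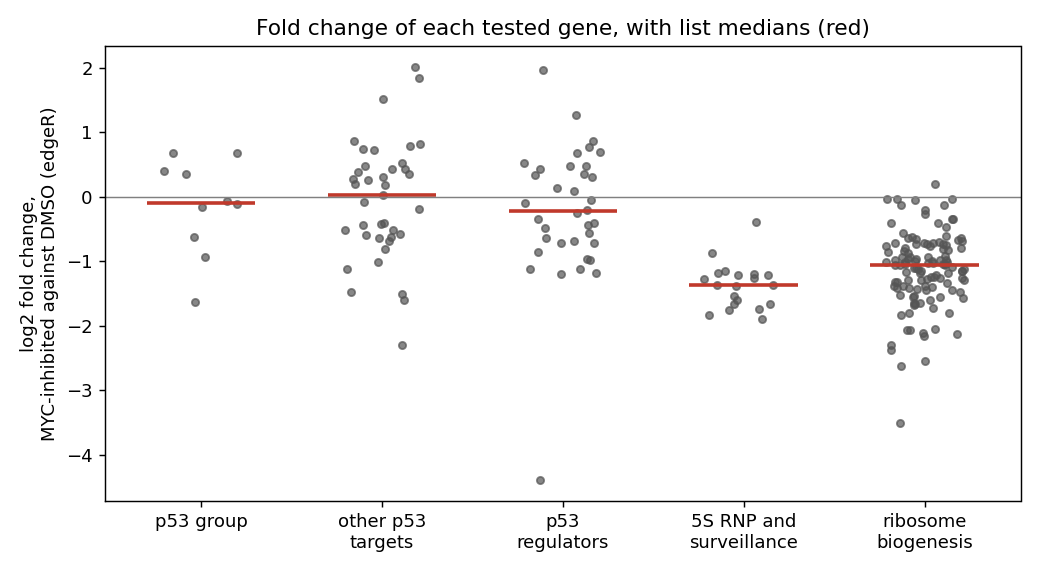
Log2 fold change by edgeR of each tested gene (points, spread sideways at random within a list) with the list medians in red. The medians are -0.09 for the p53 members, 0.03 for other p53 targets, -0.23 for p53 regulators, -1.37 for the 5S list and -1.06 for ribosome biogenesis.

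For the factor that was inhibited, Myc RNA had 7.59 and 7.81 FPKM in control and 2.73 and 2.74 FPKM in treated embryos, and Max RNA 16.2 and 34.9 against 68.8 and 46.4 FPKM. The log2FC was -1.64 for Myc and 1.07 for Max (adjusted p = 0.333 and 0.334 by edgeR), and -1.51 and 0.72 without DMSO replicate 1. The inhibitor acts on MYC protein, so these values do not check the treatment.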

How the data were processed

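Late two-cell embryos were compared between 2 DMSO and 2 MYC-inhibited libraries, grouped by the sample titles. The authors aligned read pairs to mm10 with STAR (version 2.7.10 in the submitters' processing notes), kept uniquely mapped reads and quantified RefSeq genes with RSEM (1.3.3). In the deposited tables the expected count is RSEM's estimate of fragments per gene and is not normalized. The TPM deposited by the authors sums to 1000000 per library and was not tested. FPKM values, as deposited, are divided by effective transcript length and by library fragments. The lengths deposited by the authors were used as offsets in 1 alternative. No source used here says that counting used strand. Total counts are the depth, and PCR copies were counted as molecules, so a floor of 3 counts covers counting error only.

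Expected counts were rounded, filtered with filterByExpr (minimum count 10, minimum total 15), scaled with TMM factors (0.873, 1.04, 1.04 and 1.06) and tested over 13549 genes with edgeR's quasi-likelihood test (edgeR 4.0.16, R 4.3.3, robust, Benjamini-Hochberg). Called genes had |log2FC| > 1 and an adjusted p under 0.05, the study's thresholds. Intervals are 95% intervals of that fit. Alternatives were DESeq2 1.42.0 (3 fits), limma 3.58.1 on log2 FPKM with a pseudocount of 1 or 0.1 (mean FPKM 1 or more), other scaling, other filters, a replicate block and each library left out. The code was checked on simulated counts, where set changes had to be found only with a spread lower than in these libraries. That check does not measure the power of the tests here.

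The members and all gene lists, written from general knowledge, were chosen with earlier results of these data known. Named genes were all members and fixed symbols of each list, besides those marked as chosen after their values were seen. Promoter sequences are from RefSeq (GRCm38.p6), and Trp53inp1 had no window in the table used.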

Additional observations from a re-analysis of the deposited data

How the results depend on the processing

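The number of genes called over the whole table depended on the test and the libraries. Against 0 higher and 0 lower by edgeR (639 higher and 1374 lower at an unadjusted p under 0.05), 97 higher and 479 lower genes were called by DESeq2 on the same genes, 87 and 437 by DESeq2 on every gene with a count, 87 and 438 by DESeq2 with transcript lengths, and 165 and 479 by edgeR with no filter on low counts. Each of these 4 settings called 1 member, Ei24. With each library left out in turn, 1 to 2148 genes were called higher, 1 to 2065 lower and 0 to 3 of the members. The highest counts were without DMSO replicate 2, where the DMSO arm was DMSO replicate 1 alone, assumed to vary like the treated libraries, and the members called were Mdm4, Ei24 and Gadd45a.

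Deviations of same-numbered libraries from their group means had a Pearson's r of -0.03 over genes. With 2 libraries in each group, this value cannot decide whether the replicate numbers mark a shared fertilization or batch. With the replicate number as a block, 12 genes were called higher and 32 lower, 0 of them members, and the median log2FC of the other p53 targets was 0.19.

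The median log2FC of the members was 0.070 and 0.075 with limma and 0.053 with library totals, a scaling that moved the median of all genes from 0.04 to 0.17, and -0.11 to -0.01 with each library left out. That of the other p53 targets was -0.062 by DESeq2 on every gene with a count, 0.23 and 0.34 by limma with a pseudocount of 1 and 0.1, 0.16 with library totals, -0.077 with no filter, -0.066 with at least 10 counts in every library and -0.17 to 0.075 with each library left out. That of the p53 regulators was -0.083 and -0.10 by limma, -0.082 with library totals and -0.29 to -0.077 with each library left out. The medians of the 5S list (-1.79 to -0.73) and of ribosome biogenesis (-1.43 to -0.55) kept their direction in every setting run.

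Signs turned for several genes. Mdm2 was at 0.025 by both limma fits and 0.028 with library totals, and Sesn1 at 0.12 by both limma fits and 0.078 with library totals. When single libraries were left out, the log2FC spanned 0 for Trp53 (-0.37 to 0.048), Mdm2 (-0.24 to 0.026), Cdkn1a (-0.39 to 1.31), Ccng1 (-0.15 to 1.15), Sesn1 (-0.15 to 0.060), Gadd45a (-1.57 to 0.22), Trp53inp1 (-0.0017 to 0.99), Pmaip1 (-0.51 to 1.63), Zmat3 (-0.39 to 2.43), Plk2 (-1.69 to 0.30), Perp (-0.69 to 6.17, the latter a fitted value against DMSO replicate 1 at 0 counts and no bound), Trp53bp1 (-0.45 to 0.043), Pes1 (-1.32 to 0.25) and Polr1b (-1.35 to 0.049). Trp53 was also at 0.044 without DMSO replicate 2, Zmat3 at -0.022 without inhibitor-treated replicate 1 and Perp at -0.67 without inhibitor-treated replicate 2. The cause of these differences between settings was not tested.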
